A study of Homo sapiens with 6 samples.

Results

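RNA that came down with the poly(A)-binding protein PABPC4 was compared directly with RNA that came down with its relative PABPC1, gene by gene, in HepG2 cells. The deposited tables of both immunoprecipitations were joined on the gene identifier, and all 58302 genes listed in them were taken, which is 58302 of 58302 in the series. Of these, 15097 had a fold above 0 in both tables and 22114 had reads assigned to single libraries. Enough reads for a test were found for 8537. The comparison used 4 of the 6 libraries, 2 for each protein, and the 2 IgG libraries entered only the estimate of spread. The values were centred on the median gene, so that "higher" means higher than the typical mRNA of the same library.

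Cytoplasmic poly(A)-binding proteins coat the poly(A) tail of mRNA, bind the initiation factor eIF4G and recruit deadenylases, and so take part in both translation and decay. PABPC1 is the family's most abundant form in most cells. PABPC4 is a close relative first described in activated T cells, and both can sit on the same kinds of tails. The study's title concerns PABPC4 and MYC, a growth-promoting transcription factor, in liver cancer, and the direct comparison asks which mRNAs one protein holds relative to the other.

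HepG2 is a human line of liver cancer cells. Per the labels, the PABPC1 immunoprecipitations came from HepG2 labelled PABPC1 overexpressed, and those of PABPC4 from HepG2 labelled PABPC4 overexpressed. An IgG control was made from each of these cell populations, and all libraries share the same medium, lysis and random-primed kit. Because each antibody was used on its own cell population, the antibody, the bound protein and the cells cannot be told apart, and nothing says whether the overexpressing cells were 1 clone. The labels do not say that the libraries came from separate cultures, so each p-value reflects only how far these libraries differ, a spread that may be technical.

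The PABPC1 libraries held 289217 (library A) and 277552 reads (library B), and the PABPC4 libraries 850190 and 841327. Values are given as scaled reads, which are reads divided by a factor that brings the median gene of the 4 libraries to the same level. Mitochondrial rRNA took 35.5% to 41% of the reads with PABPC1 and 15.8% to 16.8% with PABPC4. Nuclear protein-coding mRNA took 50% and 55.3% against 74.9% and 73.5%. The typical tested gene had 16 summed reads with PABPC1 and 64 with PABPC4, so the PABPC1 libraries limit the precision. On the scale of the median gene, hepatocyte markers were at like levels, with summed scaled reads of 4379 and 4427 with PABPC1 and 4332 and 4625 with PABPC4. As a percentage of all reads the 14 tested ones took 0.743% and 0.827% with PABPC1 and 1.02% and 1.08% with PABPC4.

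The starts of a few transcripts are shown because one class of mRNAs has long been tied to poly(A)-binding proteins. These mRNAs of the translation machinery begin with a cytosine followed by a run of pyrimidines, known as the 5′ terminal oligopyrimidine tract, and among them is the mRNA of PABPC1 itself. The first 20 bases of 4 such starts and of 2 genes with another start are given from RefSeq (GRCh38.p14), with the opening run of C and T in capitals. RPS6, a small-subunit ribosomal protein, starts at chr9:19380217-19380236 (minus strand) and EEF1A1, the main elongation factor, at chr6:73521013-73521032 (minus strand). EEF2, the translocation factor, starts at chr19:3985444-3985463 (minus strand) and NPM1, a nucleolar histone chaperone, at chr5:171387849-171387868 (plus strand). MKI67, the Ki-67 proliferation antigen, starts at chr10:128126404-128126423 (minus strand) and CNBP, a zinc-knuckle nucleic-acid-binding protein, at chr3:129183877-129183896 (minus strand).
RPS6: CTCTTTTCCgtggcgcctcg
EEF1A1: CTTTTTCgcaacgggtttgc
EEF2: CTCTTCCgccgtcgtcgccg
NPM1: CTTTCCCTggtgtgattccg
MKI67: agaaggaagtggagggctga
CNBP: gtgcagacccgcgtgtggcg

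Most mRNAs came down with both proteins in nearly the same proportion. The log2 difference, PABPC4 minus PABPC1, had a median of -0.01 over the 8537 genes, with quartiles of -0.36 and 0.35, and 72% of genes lay within 1.5-fold of equality. At an adjusted p under 0.05 (limma, Benjamini-Hochberg), 193 genes were higher with PABPC4, which is 2.26% of those tested, and 137 were lower, which is 1.6%. Of these, 51 were over 2-fold higher and 85 over 2-fold lower. The median difference was 0.80 among the higher genes and -1.25 among the lower ones. The groups did not overlap in any of the 330 called genes (3.87%). Among all tested genes, both PABPC4 libraries lay above both PABPC1 libraries in 2271 (26.6%) and below in 1880 (22%).

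The counts turned on the PABPC1 libraries. Without PABPC1 library A, 14 genes were higher and 10 lower, and without library B 10 and 13. Without PABPC4 library A, 133 were higher and 78 lower, and without PABPC4 library B 226 and 112. Scaling to library totals in place of the median gene moved the median of the tested genes to 0.39 and gave 895 higher and 68 lower calls, 92.9% higher in place of 58.5%. Scaling to totals over nuclear-encoded genes gave 42.5% higher and moved the median to -0.10. Upper-quartile scaling gave 51.2% higher.

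**Figure D1:**
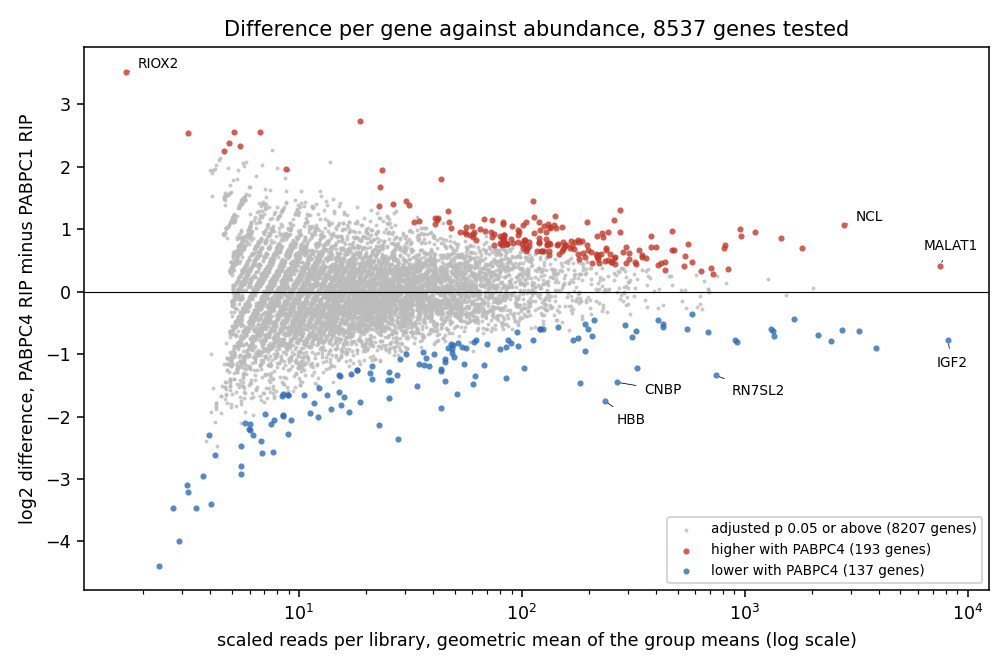
Each point is 1 of the 8537 tested genes, with the log2 difference (PABPC4 minus PABPC1) on the y axis against the geometric mean of the 2 groups' mean scaled reads on a log x axis. The 193 higher genes (red) lie mainly among abundant mRNAs, and the 137 lower genes (blue) reach to rarer ones. RIOX2 had no PABPC1 read and is drawn at a floor on the x axis.

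Against IgG the called groups differed in where they stood. In the authors' deposited table, the genes higher with PABPC4 had a median fold over IgG of 1.46 with PABPC1 and 3.4 with PABPC4. In the authors' deposited table, the genes lower with PABPC4 stood at 1.75 and 1.32, and all tested genes at 1.52 and 2.05. All 193 higher genes had a PABPC4 fold above 1 in the authors' deposited table, and 182 of them were listed there as enriched at an adjusted p under 0.05, against 49 in the PABPC1 table. Of the 137 lower genes, the authors' deposited table put 98 above 1 with PABPC1 and 84 with PABPC4. It listed 51 and 26 of them as enriched, and 13 and 36 as depleted. Both tables use the same IgG libraries, so these folds are not independent of each other. The called genes were chosen from the same reads, so their opposite standing in the 2 tables follows in part from that choice. PABPC4 had 1691517 reads and PABPC1 566769, and the part of depth in the enriched and depleted counts was not tested.

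Among the called genes, 16 passed the test with every one of the 6 libraries left out in turn. They were picked out after their values were seen. Of these 16, 7 were higher with PABPC4 and 9 lower.

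NCL encodes nucleolin, an abundant nucleolar RNA-binding protein (chr2:231453531-231464484). Its mRNA had 1995 and 1852 scaled reads with PABPC1 and 4148 and 3905 with PABPC4. The groups lay far apart, and the level with PABPC4 was 2.1-fold higher (log2 1.07 ± 0.05 SE, n = 2 libraries each, limma adjusted p = 7.85e-15). DSP, desmoplakin, which anchors keratin filaments at desmosomes (chr6:7541671-7586714), rose from 827 and 775 to 1600 and 1499 (log2 0.95 ± 0.07, limma adjusted p = 1.43e-10). MKI67, whose start is shown above, went from 676 and 725 to 1352 and 1267 (log2 0.90 ± 0.08). The Ki-67 protein coats mitotic chromosomes, and the exons counted for its gene span 12807 nucleotides. HSP90B1, the HSP90 of the endoplasmic reticulum, had 1108 and 1062 against 1990 and 1938 (log2 0.86 ± 0.06). EIF3A, the largest subunit of the initiation factor eIF3, had 1427 and 1405 against 2387 and 2225 (log2 0.70 ± 0.06). All of these mRNAs were above IgG with both proteins in the authors' deposited table, at 1.15-fold and 3.16-fold for NCL and 2.46-fold and 6.04-fold for MKI67.

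The nuclear long non-coding RNA MALAT1 rose as well, but by less. It had 6627 and 6349 scaled reads with PABPC1 and 8800 and 8502 with PABPC4, 1.33-fold higher (log2 0.42 ± 0.02, limma adjusted p = 1.6e-14). MALAT1 keeps no ordinary poly(A) tail, since its end is cut by RNase P and closed as a triple helix. At the low end of abundance, RIOX2, a nucleolar ribosomal oxygenase, had 0 reads in both PABPC1 libraries and 22 in each PABPC4 library. Against a floor of 3 reads over the PABPC1 group it was 3.74-fold higher, a value that allows for no counting error in its PABPC4 reads. RIOX2 passed the filter on low reads only through its PABPC4 reads, so its place among the 16 genes is given as a description and its p-value is not.

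On the other side, the mRNA of the growth factor IGF2, made in large amounts by HepG2, was the most abundant gene that fell. It had 10054 and 11323 scaled reads with PABPC1 and 6017 and 6470 with PABPC4, 1.71-fold lower (log2 -0.77 ± 0.03, limma adjusted p = 1.7e-16). IGF2 (chr11:2129117-2149566) overlaps INS-IGF2, and reads of such a pair could be split between them. CNBP, whose start is shown above, had 450 and 428 against 147 and 175, 2.73-fold lower (log2 -1.45 ± 0.11). In the authors' deposited table, CNBP stood at 14.2-fold over IgG with PABPC1 and 6.86-fold with PABPC4, far above the typical gene in both. NEAT1, the long non-coding RNA that builds paraspeckles and lies beside MALAT1 on chromosome 11, went the opposite way to its neighbour. It had 3488 and 3309 against 2199 and 2241 (log2 -0.61 ± 0.03), and the groups did not overlap.

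The other 6 stable lower genes were RNAs that are not nuclear mRNAs, or are not typical of liver cells. RN7SL2 and RN7SL3, copies of the 7SL RNA on which the signal recognition particle is built, were 2.53-fold and 2.76-fold lower with PABPC4. Both stood below IgG with each protein in the authors' deposited table. RN7SL2 was at 0.402-fold with PABPC1 and 0.209-fold with PABPC4, and RN7SL3 at 0.462-fold and 0.219-fold. Because 7SL copies are nearly identical, the split of reads between them is uncertain. The mitochondrially encoded MT-CO3, MT-ND6 and MT-CYB were 1.75-fold, 1.72-fold and 1.51-fold lower. HBB, the beta chain of adult haemoglobin, had 436 and 424 scaled reads with PABPC1 and 142 and 115 with PABPC4, 3.35-fold lower (log2 -1.74 ± 0.12). HBB too stood below IgG in the authors' deposited table, at 0.346-fold with PABPC1 and 0.136-fold with PABPC4. Under limma-trend in place of voom only HBB and RN7SL2 passed, both at an adjusted p of 0.0454. With no filter on low reads NCL, HSP90B1, DSP, MKI67, EIF3A and MT-ND6 no longer passed, with limma adjusted p between 0.156 and 0.996 and their differences between -0.80 and 1.07.

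**Figure D2:**
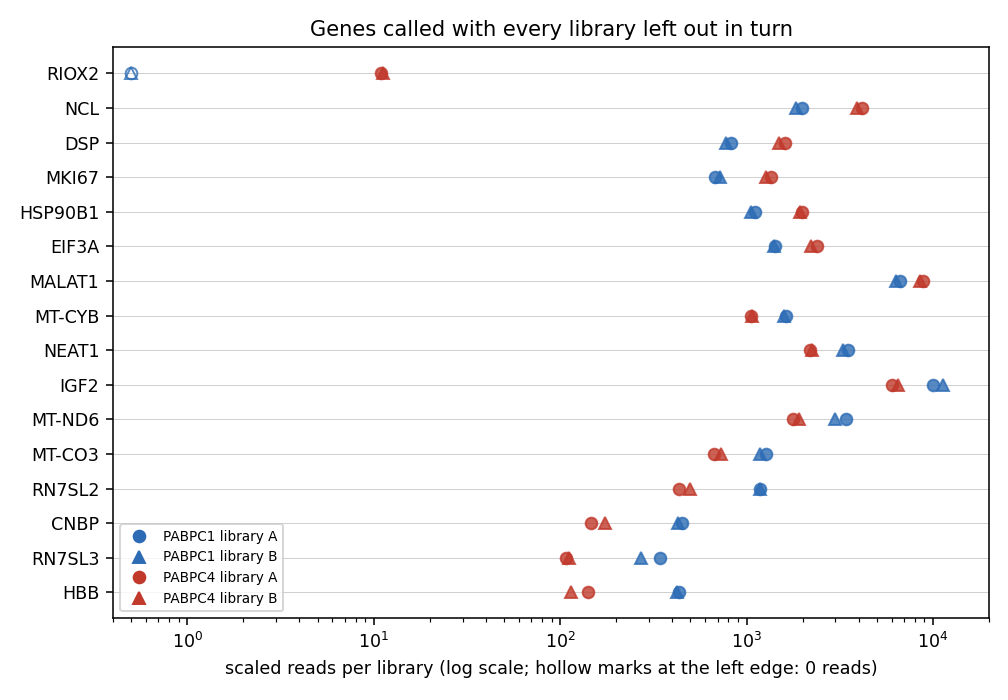
Scaled reads (log x axis) of the 16 genes that passed with every library left out in turn, ordered by their difference, with circles for library A and triangles for library B of PABPC1 (blue) and PABPC4 (red). In each gene the 2 libraries of a protein lie close together and apart from the other protein's, from HBB at the bottom (424 to 436 against 115 to 142) to NCL near the top (1852 to 1995 against 3905 to 4148).

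The 43 lists of known function were described by counts and medians. Their counts are to be read beside the shares over all tested genes, 2.26% higher and 1.6% lower. In the quintile with most reads these shares were 10.3% and 4.16%, so counts also follow the reads of a list. Messenger RNAs for ribosome assembly in the nucleolus were the first group to lean towards PABPC4. Of 67 tested genes of nucleolar ribosome biogenesis 9 were higher and none lower, with a median difference of 0.33 against -0.01 over all genes, and 50 of the 67 lay above 0. Besides NCL they included BMS1, a GTPase of small-subunit assembly, at 104 and 119 against 200 and 181 scaled reads (log2 0.76 ± 0.17, limma adjusted p = 0.00673). MDN1, a giant AAA ATPase that strips factors from the large subunit, was at 0.92 ± 0.23 and NOP14, of the small-subunit processome, at 0.96 ± 0.26. The list's median stayed between 0.34 and 0.38 with each RIP library left out. Its 9 calls became 1 without either PABPC1 library and 2 without PABPC4 library A, and NOP14 did not pass with totals over nuclear-encoded genes (0.87, limma adjusted p = 0.0502).

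Splicing factors and the proteins that package chromatin leaned the same way. Of 70 spliceosome and hnRNP genes 11 were higher, against 2.26% of all tested genes, and none lower, against 1.6%, with a median of 0.17. RBM25, a splicing regulator with a long run of arginine and glutamate, had 348 and 326 scaled reads with PABPC1 and 708 and 619 with PABPC4 (log2 0.97 ± 0.12, limma adjusted p = 2.44e-06). PRPF4B, a kinase of the spliceosome, was at 1.07 ± 0.18, SF3B2, of the U2 snRNP, at 0.71 ± 0.14 and SFPQ, of paraspeckles, at 0.59 ± 0.11. Of 61 chromatin modifiers 6 were higher and none lower, with a median of 0.36, the highest among the 43 lists of known function. SMARCC1 and SMARCA4, both of the SWI/SNF remodelling complex, were 1.76-fold and 1.81-fold higher. BPTF, of the NURF remodeller, and ATRX, a helicase of heterochromatin, were 1.52-fold and 1.68-fold higher. Without PABPC1 library A or B none of these calls passed in either list, while the medians stayed between 0.16 and 0.29 for splicing and between 0.31 and 0.46 for chromatin.

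Further nuclear groups were put together after the values had been seen, and are given as a description. Of 22 proteins of nuclear speckles 12 were higher and none lower, with a median of 0.52. ZC3H13, of the m6A writer complex, had 126 and 141 scaled reads against 304 and 276 (log2 1.11 ± 0.15). PNN, pinin, had 625 and 632 against 1130 and 993 and SON, a speckle scaffold, 87.5 and 90.6 against 205 and 177. Of 22 elongation factors of RNA polymerase II 5 were higher: LEO1, IWS1, SUPT5H, SUPT6H and SUPT16H, between 1.85-fold and 2.33-fold. LEO1, of the PAF1 complex, had 81.4 and 102 against 220 and 211 scaled reads. Of 18 cohesin and condensin genes SMC1A (2.21-fold) and SMC3 (1.78-fold) were higher. None of the calls in these nuclear groups passed without PABPC1 library A or B.

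Long cytoskeletal proteins formed another such group, chosen in the same way. Of 16 myosins, plakins and spectrins 8 were higher and none lower, with a median of 0.47. MYH9, the heavy chain of non-muscle myosin IIA, had 167 and 181 scaled reads with PABPC1 and 460 and 407 with PABPC4, 2.48-fold higher (log2 1.31 ± 0.14, limma adjusted p = 1.35e-07). MYH10, the IIB heavy chain, had 81.4 and 54 against 191 and 177 (log2 1.46 ± 0.21). SPTBN1, a beta spectrin, was 1.70-fold higher and SPTAN1, its alpha partner, 2.11-fold. Apart from DSP, none of these passed without PABPC1 library A or B. Among the 31 tested genes of the actin cytoskeleton, 2 were higher (MYH9 and MYH10) and 4 lower, with a median of -0.07. CAPZB, which caps actin filaments, was one of the lower ones (1.83-fold). TMSB4X, thymosin beta 4, had 44.8 and 15.4 scaled reads against 5.52 and 10.2 (log2 -1.81 ± 0.44). It stood below IgG with both proteins in the authors' deposited table, at 0.303-fold with PABPC1 and 0.106-fold with PABPC4. The PABPC1 libraries of TMSB4X differed widely, and it stood at -1.02 without library A and -2.51 without library B, neither of which passed, and at -1.37 without PABPC4 library A, which did not pass either. CAPZB was lost without PABPC1 library A or B and with library totals (-0.47, limma adjusted p = 0.0935).

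Genes of cell division came partly with PABPC4. Of 41 cell cycle genes 4 were higher, against 2.26% of all tested genes, and none lower, against 1.6%, with a median of 0.14. Beside MKI67 these were TOP2A, which untangles replicated DNA (222 and 233 against 398 and 353 scaled reads, log2 0.71 ± 0.13), the checkpoint kinase BUB1B (0.90 ± 0.21) and the spindle factor TPX2 (0.56 ± 0.14). Of 56 centromere and centrosome genes 4 were higher and none lower (median 0.25), led by CENPF, a kinetochore protein with 312 and 310 against 537 and 491 (log2 0.72 ± 0.11, limma adjusted p = 5.12e-05). The others were CNTRL, PCM1 and CEP250, all centrosomal scaffolds. Of 28 kinesins, motors that walk on microtubules, KIF5B and KIF16B were higher and KIF12 lower (median 0.25). KIF12, with a mean of 4.79 scaled reads with PABPC4, entered the test only through its PABPC1 reads. TPX2, CEP250 and KIF16B did not pass with totals over nuclear-encoded genes (0.47, 0.69 and 0.78) or without PABPC4 library A, nor did KIF12 with library totals (-1.27) or without either PABPC4 library. Only MKI67 among these genes passed without PABPC1 library A or B.

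Zinc finger genes and RNA helicases had medians above 0 with few calls. Of 206 zinc finger genes with a ZNF symbol 3 were higher and 1 lower, with a median of 0.23. Over all tested genes 2.26% were higher and 1.6% lower. Of the 3 higher, ZNF330 entered the test only through its PABPC4 reads. In 85 of the 206 both PABPC4 libraries lay above both PABPC1 libraries, a larger share than the 26.6% over all tested genes. ZNF721 had 18.3 and 19.3 scaled reads against 49.6 and 53.4 (log2 1.39 ± 0.34). ZNF503 was the lower one, at 14.3 and 17.3 against 5.01 and 5.08. Of 44 helicases DDX27, of ribosome assembly, and DDX46, of the spliceosome, were higher (1.70-fold and 1.63-fold). DDX6, a helicase of mRNA decay and translational repression, was 1.90-fold lower, with 89.6 and 131 against 60.7 and 54.9. None of these passed without PABPC1 library A or B, apart from ZNF330, described with the extremes. DDX27 (0.67) and DDX46 (0.61) missed the threshold with totals over nuclear-encoded genes, and DDX6 (-0.52) and ZNF503 (-1.26) with library totals.

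**Figure D3:**
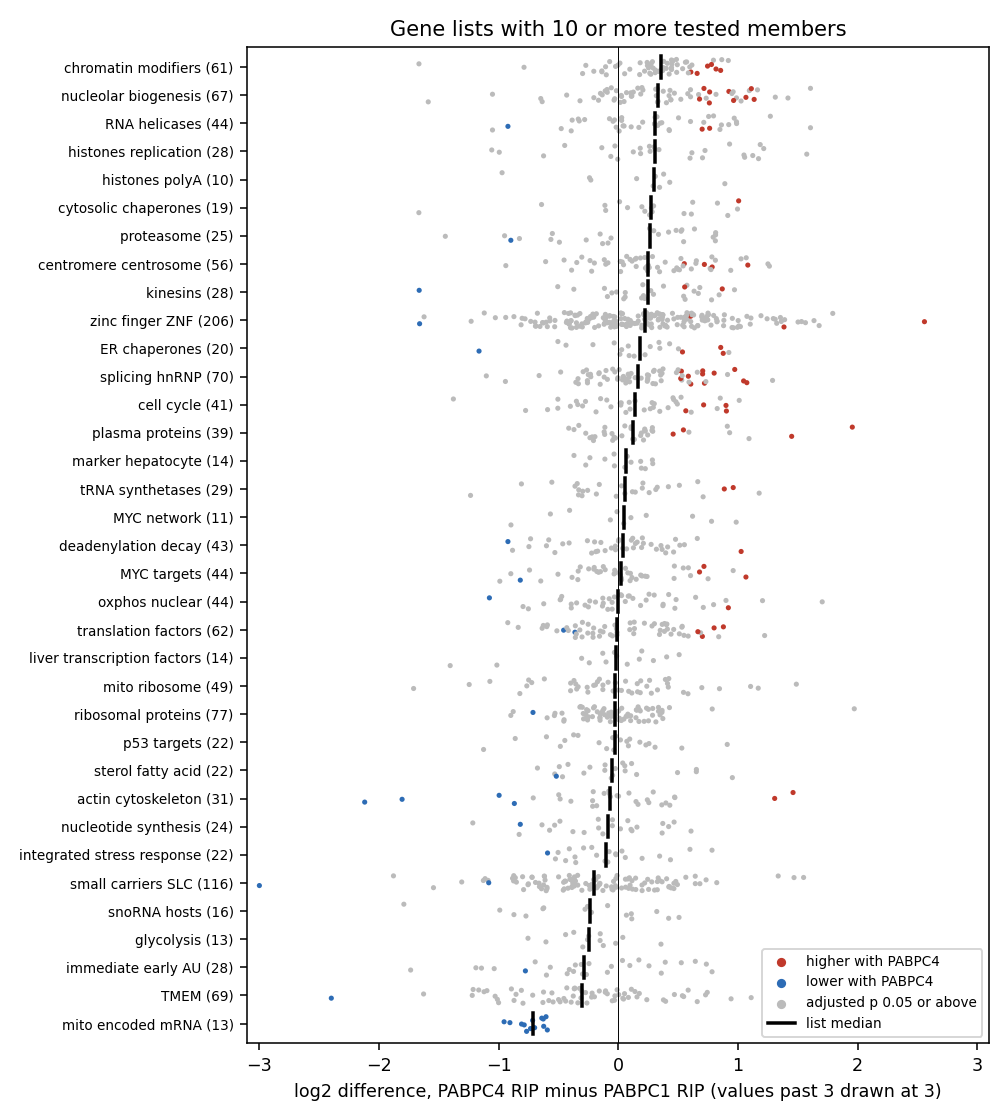
Log2 difference (PABPC4 minus PABPC1, x axis) of every tested member of the gene lists with 10 or more tested members (number in brackets), ordered by the list median (black bar), with red and blue for called genes. Chromatin modifiers (median 0.36) and nucleolar genes (0.33) are at the top, ribosomal proteins sit at -0.03, and mitochondrially encoded mRNAs (-0.72) stand at the bottom.

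The translation machinery had medians near 0. Ribosomal protein mRNAs had a median difference of -0.03 and ranged from -0.90 to 1.97 over the 77 tested. With limma 0 of them were called higher and 1 lower, and 10 had an unadjusted p under 0.05. The lower one was RPS2, with 257 and 270 scaled reads against 165 and 157 (log2 -0.71 ± 0.12). RPS6 was at 0.03 ± 0.09 (limma adjusted p = 0.925), with 578 and 455 scaled reads with PABPC1 and 526 and 519 with PABPC4. Of 62 translation factors 4 were higher and 2 lower, with a median of -0.01. EIF5B, the GTPase that joins the ribosomal subunits, had 358 and 389 against 621 and 568 (log2 0.67 ± 0.10). ABCF1, an ATPase that helps initiation, was 1.74-fold higher. EEF1A1 was lower, with 468 and 488 against 327 and 372 (log2 -0.46 ± 0.10, limma adjusted p = 0.00669). Without PABPC1 library A or B only EIF3A passed among these. With library totals EEF1A1 stood at -0.06 and RPS2 at -0.32, and neither passed.

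Starts like those printed for RPS6 and EEF1A1 were looked for in the RefSeq table, on the transcribed strand, as a C followed by at least 4 bases that are each C or T. They make up 4.07% of the 35116 starts in that table, which are not the starts measured in HepG2. Of the 515 tested genes with such a start 4 were higher and 8 lower, with a median of -0.06. Of the 5998 tested genes with another start 142 were higher and 78 lower, with a median of 0.00. The 44 ribosomal protein genes with the start had a median of -0.06 and no call. EEF2 was at -0.01 ± 0.09, NPM1 at 0.02 ± 0.08, and TPT1, a small growth-related protein with the same kind of start, at -0.60 ± 0.20 (limma adjusted p = 0.109).

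Several chaperones of the cytosol and the endoplasmic reticulum were higher with PABPC4. HSP90AA1, the inducible HSP90 of the cytosol, had 688 and 659 scaled reads with PABPC1 and 1449 and 1263 with PABPC4, 2.01-fold higher (log2 1.01 ± 0.10, limma adjusted p = 2.78e-08). It was the only call among 19 cytosolic chaperones, whose median was 0.28. Of 20 chaperones of the endoplasmic reticulum 3 were higher and 1 lower, with a median of 0.18. HSPA5, the HSP70 known as BiP, had 163 and 177 against 305 and 324 (log2 0.88 ± 0.13) and PDIA4, a disulfide isomerase, was 1.45-fold higher. FKBP2, a small prolyl isomerase, was 2.24-fold lower, with 85.5 and 79 against 37.6 and 36.1. HSP90AA1 narrowly missed the threshold without PABPC1 library A (1.10, limma adjusted p = 0.0541) or B (1.03, 0.0684), and in the no-filter fit (0.520). HSPA5, PDIA4 and FKBP2 also did not pass without PABPC1 library A or B.

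The lists of poly(A)-binding proteins and of the decay machinery had medians of -0.19 and 0.04, with single genes differing in both directions. Members of the decay list ranged from -0.92 to 1.03. The mRNA of PABPC1 had 350 and 339 scaled reads in the PABPC1 RIP and 252 and 289 in that of PABPC4 (log2 -0.36 ± 0.11, limma adjusted p = 0.0721). The PABPC4 mRNA had 65.2 and 82.9 against 69.2 and 78.3 (log2 -0.02 ± 0.21, limma adjusted p = 0.986). Neither passed the main test, but the PABPC1 mRNA did with either IgG library left out (-0.36) and without PABPC4 library B (-0.45). Reads bound to an antibody do not measure how strongly either gene was overexpressed. PABPN1, the nuclear poly(A)-binding protein, was 1.65-fold lower with PABPC4, at 383 and 416 against 234 and 252 (log2 -0.72 ± 0.11). The gene overlaps the readthrough gene BCL2L2-PABPN1, so its reads may be split. Of 43 genes of deadenylation and decay, UPF2, of nonsense-mediated decay, was 2.04-fold higher and DDX6 was the only lower one (median 0.04). The calls of PABPN1, UPF2 and DDX6 were lost without PABPC1 library A or B, and those of PABPN1 and DDX6 with library totals (-0.32 and -0.52).

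MYC itself was not called in the main test, but it passed with either IgG library left out (log2 0.62 in both). Its mRNA had 50.9 and 71.3 scaled reads with PABPC1 and 97.3 and 91.5 with PABPC4 (log2 0.62 ± 0.22, limma adjusted p = 0.125). Both PABPC4 libraries lay above both PABPC1 libraries, as in 26.6% of all tested genes. In the authors' deposited table, MYC stood at 1.12-fold over IgG with PABPC1 and 2.25-fold with PABPC4. Of 11 genes of the MYC network 0 were called with limma (1 at an unadjusted p under 0.05), and of 44 MYC targets 3 were higher and 1 lower with a median of 0.02. The higher ones were NCL, WDR43 and NOP58, all of the nucleolus. PAICS, an enzyme of purine synthesis, was lower, with 108 and 129 against 65.7 and 69.1 (log2 -0.82 ± 0.18). WDR43, NOP58 and PAICS did not pass without PABPC1 library A or B, and WDR43 and NOP58 did not pass without PABPC4 library A. With totals over nuclear-encoded genes WDR43 (0.63) and NOP58 (0.59) were lost, and with library totals PAICS (-0.42).

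Secreted liver proteins held a few strong calls and many genes that were not called. Of 39 tested plasma protein genes 4 were higher with PABPC4 and none lower, with a median of 0.12. SPP1, osteopontin, a secreted phosphoprotein raised in liver tumours, had 8.14 and 15.4 scaled reads with PABPC1 and 48.6 and 46.8 with PABPC4, 3.88-fold higher (log2 1.96 ± 0.47). CFI, complement factor I, was 2.73-fold higher, ITIH2, an inter-alpha-trypsin inhibitor heavy chain, 1.46-fold, and C3, the central complement component, 1.37-fold. The abundant APOB, of very low density lipoprotein, was even, at 1953 and 2028 against 1979 and 2165 (log2 0.05 ± 0.06, limma adjusted p = 0.71). ALB, albumin, had 676 and 729 against 541 and 628 (log2 -0.27 ± 0.09, limma adjusted p = 0.0941). Among enzymes, ADH4, an alcohol dehydrogenase of liver, had 46.8 and 44.3 against 6.52 and 16.3, 4.41-fold lower, and RIDA, which detoxifies reactive imines, 34.6 and 28.9 against 5.01 and 17.3. The PABPC4 libraries of both enzymes lay far apart: ADH4 stood at -1.49 without PABPC4 library A and -2.78 without library B, and RIDA at -0.89, which did not pass, and -2.62. SCD, the desaturase that makes monounsaturated fat, was 1.43-fold lower (log2 -0.52 ± 0.09). None of these calls passed without PABPC1 library A or B, SCD did not with library totals (-0.12), and C3 did not with totals over nuclear-encoded genes (0.37) or upper-quartile scaling (0.42).

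A few stress and early-response mRNAs were lower with PABPC4. ATF4, the transcription factor at the centre of the integrated stress response, had 668 and 684 scaled reads with PABPC1 and 448 and 450 with PABPC4, 1.51-fold lower (log2 -0.59 ± 0.08, limma adjusted p = 5.83e-06). It was the only call among 22 genes of that response (median -0.10). KLF6, an early-response zinc finger factor, had 216 and 227 against 122 and 138 (log2 -0.78 ± 0.14), and the 28 immediate early and AU-rich mRNAs had a median of -0.28 with no other call. YBX1, a cold-shock-domain protein that packages mRNA, was picked after its values were seen: it had 1904 and 1952 against 1447 and 1410 (log2 -0.43 ± 0.04, limma adjusted p = 2.1e-08). Neither ATF4 nor KLF6 passed without PABPC1 library A or B or with library totals (-0.19 and -0.38). With library totals the early-response list had a median of 0.11, against 0.39 for all tested genes.

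Genes for membrane proteins lay below the median gene, with few calls. Of 116 SLC carriers, which move small molecules across membranes, SLC6A6 and the red-cell gene SLC4A1 were lower and none higher (median -0.21). That is 2 of 116, where 1.6% of all tested genes were lower. Of 69 TMEM genes, named for their transmembrane segments, 1 was lower, TMEM129 (median -0.30). SLC4A1 and TMEM129, with means of 1.01 and 3.3 scaled reads with PABPC4, entered the test only through their PABPC1 reads. SLC6A6, the taurine transporter, had 73.3 and 57.8 scaled reads against 26.1 and 36.6 (log2 -1.08 ± 0.25). TMEM129, an E3 ligase of the endoplasmic reticulum, had 18.3 and 9.64 against 1 and 5.59, a difference of -2.40 that became -1.28 without PABPC4 library A, which did not pass, and -3.50 without library B. Of 8 tested genes of MHC class I presentation, 3 were above IgG with PABPC1 and 4 with PABPC4 in the authors' deposited table. B2M, the light chain, at 0.584-fold and 0.285-fold of IgG there, was 2.69-fold lower (83.5 and 65.5 against 27.6 and 27.4). HLA-B, a heavy chain, at 0.496-fold and 0.263-fold of IgG, was 2.53-fold lower. None of these passed without PABPC1 library A or B, SLC6A6 and HLA-B did not pass without PABPC4 library A either, and both were lost with library totals (-0.69 and -0.94). Scaled to library totals, where the median of all tested genes is 0.39, the list medians were 0.19 for SLC, 0.08 for TMEM and 0.05 for MHC.

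All 13 mRNAs encoded in the mitochondrial genome were lower with PABPC4, between -0.95 and -0.59, with a median of -0.72. These mRNAs are made and translated inside the organelle, where most receive a short poly(A) tail and MT-ND6 is known to lack one. Their summed scaled reads were 25562 and 22948 with PABPC1 and 13478 and 15628 with PABPC4, against 30184 and 28569 with IgG. As a percentage of all reads they were 3.46% and 3.49% with IgG, 4.34% and 4.29% with PABPC1 and 3.16% and 3.66% with PABPC4, so the place of IgG depends on the scale. In the authors' deposited table, all 13 had a fold above 1 with PABPC1 (median 1.32) and 10 of 13 with PABPC4 (median 1.07). MT-ND4, of respiratory complex I, had 5642 and 4986 against 2556 and 3118 (log2 -0.91 ± 0.06), and its call was lost without PABPC1 library A (-0.76, limma adjusted p = 0.0547). Of the 13 calls 3 passed without PABPC1 library A and 6 without library B. The nuclear mRNAs of oxidative phosphorylation stood near 0, with a median of -0.00 over 44 genes, of which UQCRB was higher and NDUFA5 lower, neither without PABPC1 library A or B, nor without PABPC4 library A.

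Markers of cell types other than hepatocytes were lower with PABPC4. Of 4 tested erythroid markers all 4 were lower (median -1.69): HBB, HBA1, HBA2 and SLC4A1, the anion exchanger of red cells. Of 9 tested leukocyte markers 4 were lower and none higher (median -1.45), namely S100A8, S100A9, LCP1 and FCGR3B. Both tested fibroblast markers, COL6A3 and COL1A2, were lower as well. SLC4A1, S100A8, LCP1, FCGR3B and COL1A2 had means of 1.01 to 4.04 scaled reads with PABPC4, under the filter's 5. They entered the test only through their PABPC1 reads, so their calls are given as a description. All 10 listed erythroid, 18 leukocyte and 11 fibroblast markers had a read in some RIP library, as did 4 of 7 endothelial ones. COL6A3, a chain of type VI collagen, had 46.8 and 80.9 scaled reads with PABPC1 and 10.5 and 13.7 with PABPC4, 5.14-fold lower (log2 -2.36 ± 0.32). The rarer markers moved with single PABPC4 libraries: without library A and B in turn SLC4A1 stood at -2.58 (not passed) and -3.82, HBA1 at -2.13 and -0.81, and S100A8 at -3.36 and -1.79 (not passed).

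Summed over each list, these markers were highest in IgG, but not gene by gene. In the authors' deposited table, COL6A3 stood at 5.84-fold over IgG with PABPC1 and 1.44-fold with PABPC4, SLC4A1 at 1.06-fold and 0.143-fold, and 3 of the 9 tested leukocyte markers were above 1 with each protein. Summed scaled reads of the erythroid list were 2871 and 2718 with IgG, 645 and 626 with PABPC1 and 245 and 165 with PABPC4. For the leukocyte list they were 623 and 721, 238 and 237, and 119.85 and 125, and for fibroblasts 216 and 208, 85.5 and 109.9, and 24.6 and 21.3. The sums of these 3 lists were higher with IgG than with PABPC1 and higher with PABPC1 than with PABPC4. That of the hepatocyte list was near level in all 6 libraries (3916 to 4625) on this scale, which the median gene sets. The 14 tested hepatocyte markers had a median fold over IgG of 1.41 with PABPC1 and 2.05 with PABPC4 in the authors' deposited table. HepG2 is the only cell type that the labels name, and the part of such RNA in the differences of other genes was not tested. Among the erythroid markers HBB alone passed without PABPC1 library A or B; no leukocyte marker did, and of the fibroblast markers COL6A3 passed without library A (-2.68) but not without B (-1.91).

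**Figure D4:**
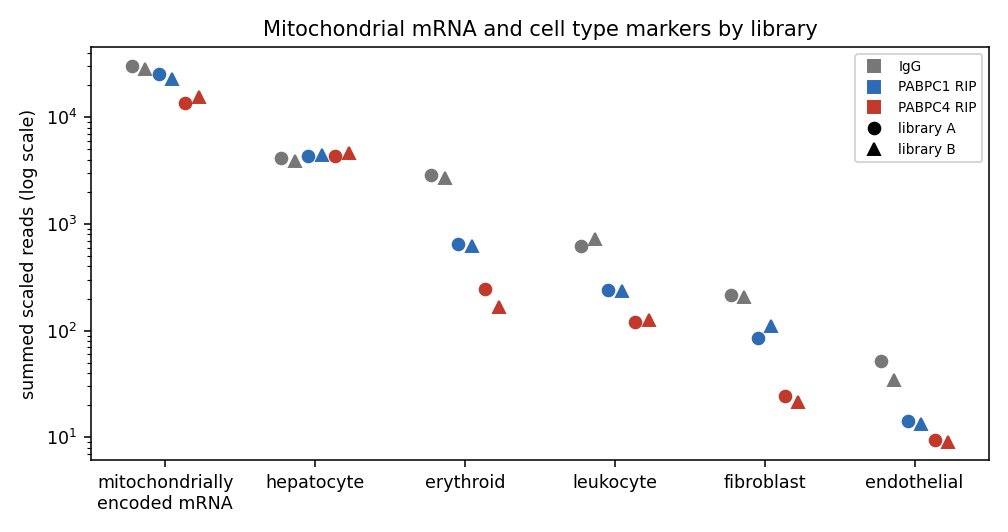
Summed scaled reads (log y axis) of mitochondrially encoded mRNAs and of 5 marker lists in each of the 6 libraries, grey for IgG, blue for PABPC1 and red for PABPC4, with circles for library A and triangles for library B. The erythroid sums fall from 2871 and 2718 in IgG to 245 and 165 with PABPC4, while the hepatocyte sums stay between 3916 and 4625.

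The remaining lists held at most 2 calls each. Proteasome subunits had a median of 0.26 over 25 genes, with PSMD7 lower. Replication-dependent histones (28 genes) and histones with ordinary poly(A) tails (10 genes) both had a median of 0.30 and no call. Among 29 tRNA synthetases, which charge tRNAs with amino acids, SARS and NARS were higher (median 0.06). With limma 0 genes were called among 49 mitochondrial ribosomal proteins (median -0.02), 22 p53 targets (-0.03), 16 snoRNA host genes (-0.24), 13 glycolytic enzymes (-0.25), 14 liver transcription factors (-0.02) and 14 hepatocyte markers (0.07). At an unadjusted p under 0.05 these lists held 6, 3, 2, 1, 2 and 1 genes, and the 2 histone lists 4 and 2. MALAT1 and NEAT1 were the calls among 8 nuclear long non-coding RNAs (-0.25), PABPN1 the call among 4 poly(A)-binding proteins (-0.19) and RN7SL2 that among 2 small structural RNAs (-1.64). The 1 tested endothelial marker, PECAM1, stood at -0.90 ± 0.49 and was not called. SCD was the only call among 22 genes of sterol and fatty acid synthesis (-0.05), and PAICS among 24 of nucleotide synthesis (-0.09). PSMD7, SARS and NARS did not pass without PABPC1 library A or B. PSMD7 was lost with library totals (-0.50) and NARS with totals over nuclear-encoded genes (0.80). With library totals the medians of snoRNA hosts and glycolysis were 0.14 and 0.15, against 0.39 for all tested genes.

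Among called genes with at least 50 RIP reads, the highest values belonged to genes with few PABPC1 reads. Of these KRI1, of small-subunit ribosome assembly, was highest at 14.3 and 1.93 scaled reads against 45.6 and 41.2, 6.62-fold (log2 2.73 ± 0.56, limma adjusted p = 0.00318). Its PABPC1 libraries did not match, and it stood at 3.98 without PABPC1 library A and at 1.56 without library B, where it did not pass. ZNF330, a nucleolar zinc finger protein, had 4.07 and 0 against 11.5 and 14.2 and likewise passed without library A (3.82) but not without B (1.41). The unnamed transcript AC124067.4 was the reverse, at 1.26 without library A (not passed) and 3.97 without B, and it did not pass without PABPC4 library A (2.32). Further high values belonged to the transcripts AC091046.3, BX322639.1 and AC012066.1 and to LRRFIP1P1, a pseudogene whose reads may come from its parent gene, at 20.4 and 25.1 against 85.2 and 79.8. None of these 4 passed without PABPC1 library A or B, and AC012066.1 stood at 2.31 without library A. With only the 4 RIP libraries AC091046.3 and BX322639.1 did not pass. ZNF330, AC124067.4, AC091046.3 and BX322639.1 had means of 1.98 to 3.96 scaled reads with PABPC1, under the filter's 5. They entered the test only through their PABPC4 reads, so their calls are given as a description.

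At the low end, DONSON, a replication fork factor, had 32.6 and 32.8 scaled reads with PABPC1 and 8.02 and 9.15 with PABPC4, 3.82-fold lower (log2 -1.93 ± 0.36). SP100, of PML nuclear bodies, had 55 and 114 against 19.1 and 25.4, and MNDA, an interferon-inducible protein of myeloid cells, 36.6 and 21.2 against 10.5 and 7.11. MNDA stood below IgG with both proteins in the authors' deposited table (0.339-fold and 0.137-fold), and SP100 above it (13.5-fold and 4.59-fold). RAB11B-AS1, which lies antisense across RAB11B, had 40.7 and 50.1 against 11.5 and 16.8. No label or header says that counting used strand, so this RNA and RAB11B cannot be told apart. AC010503.4, with no RefSeq symbol, was 3.67-fold lower. None of these 5 passed without PABPC1 library A or B.

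Few genes were seen with only 1 protein at a depth that says much. Reads in both RIPs were found for 15095 genes, in PABPC4 alone for 5754 and in PABPC1 alone for 1265, and the PABPC4 libraries are the deeper ones. Only 11 of the 5754 had 20 or more PABPC4 reads. After RIOX2 the largest were MUT, the mitochondrial methylmalonyl-CoA mutase, with 17 and 20 reads, and DCK, deoxycytidine kinase, with 16 and 12. Against a floor of 3 reads over the PABPC1 group they were 3.14-fold and 2.38-fold higher. Of the 1265, 5 had 5 or more reads, among them SPARC, a secreted collagen-binding protein, with 1 and 4 PABPC1 reads against 0. SPARC was 6.54-fold lower against a floor of 3 reads over the PABPC4 group, and it had 3 and 2 reads with IgG. These folds take the reads of the other protein as exact, and the genes were picked by those reads, so they are not lower bounds. MUT, DCK and SPARC were below the filter and were not tested.

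Longer genes had slightly higher values with PABPC4. From the shortest to the longest quintile of gene length the median difference went through -0.08, -0.03, -0.01, 0.02 and 0.05, a difference of 0.13 between the ends. The share called higher was 1.29% in the shortest and 4.04% in the longest quintile, and the share called lower 3.63% and 0.996%. Longer genes also had more reads, with a median of 58 RIP reads in the shortest and 124 in the longest quintile, and calls follow reads: 176 of the 193 higher calls lay in the top quintile of scaled reads. All 69 higher calls of the longest quintile were in that top quintile, where medians ran from -0.02 for the shortest genes to 0.20 for the longest. Whether the medians of the gene lists follow from the length and reads of their members was not tested: the genes with most reads had medians of 0.14 in the fourth length quintile and 0.20 in the longest, and the median chromatin gene is 10099 nucleotides long with 271 RIP reads.

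**Figure D5:**
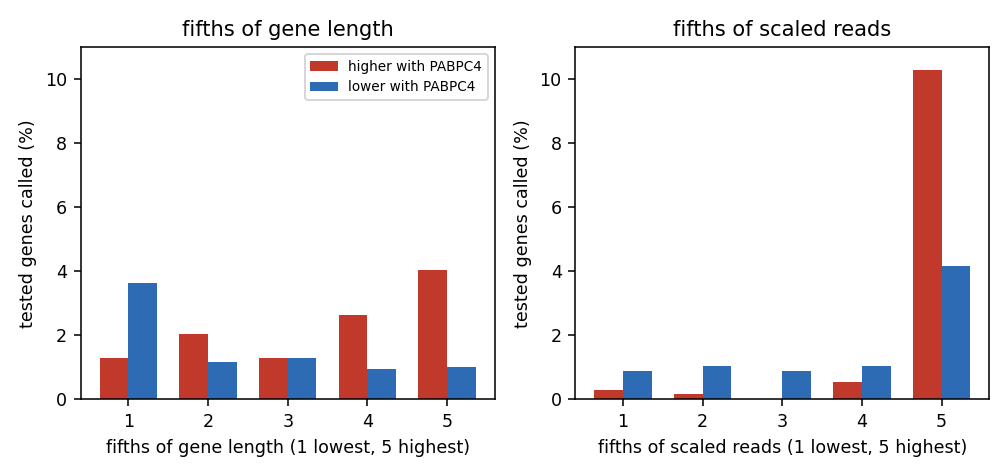
Share of tested genes called higher (red) or lower (blue) with PABPC4, in percent, in quintiles of gene length (left) and of scaled reads over the 4 RIP libraries (right). Higher calls are 4.04% of the longest quintile and 10.3% of the quintile with most reads, and lower calls are most frequent among the shortest genes (3.63%) and those with most reads (4.16%).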

How the data were processed

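Per the file headers, the authors deposited, for each RIP, 1 table with a fold (a linear ratio over IgG), a p-value and a Benjamini-Hochberg adjusted p-value per gene. Tools listed without role or order per the submitters' processing notes are featureCounts (2.0.1), STAR (2.7.10a) and Bowtie2 (2.4.1), and the listed builds are hg38 and GRCh38. Each deposited p-value could be recomputed as a Yates-corrected chi-square of summed reads, and each fold as a ratio of mean RPKM with 0.005 added to IgG, so whole reads per library were recovered for 22114 genes. Another 465 had IgG reads only, 26 were ambiguous, and MT-RNR1 and MT-RNR2 were not solved and were taken as the rest of each total. Libraries are called A and B by total, since their replicate numbers are not recoverable.

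Genes with a mean of at least 5 scaled reads over the RIP group means were tested with limma 3.58.1 (voom, R 4.3.3), 3 groups, IgG adding only to the spread (3 residual degrees of freedom). Recovery and fit were tested on simulated data, in which all 20174 solved genes had the right reads. The fit called 0 of 50 genes changed 1.5-fold, 3 of 50 changed 2-fold, 25 of 50 changed 3-fold and 39 of 50 changed 4-fold. A gene that was not called is therefore not shown to be even. Intervals of RNA class shares and floors (3 reads) cover counting error only, a floor only that of the protein without reads.

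Named genes were the 10 highest and 10 lowest differences among called genes with at least 50 RIP reads and no overlap, the 6 smallest adjusted p-values in each direction, PABPC1, PABPC4, MYC, and up to 4 called members of each of 43 gene lists (otherwise the member with the smallest p), 109 in all. Genes named outside this rule are said to be chosen after seeing values, or are shown for their start, for an even value or as found with 1 protein only. The comparison and the lists were chosen with earlier results of these data known. Gene names are the tables' own, and coordinates are RefSeq's (GRCh38.p14), which held 17424 of the 22114 symbols. The alternatives were other scalings, filters, tests and left-out libraries. The filter of 10 reads in at least 2 libraries was added after seeing the data. One gene found with 1 protein only is not reported here.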

Additional observations from a re-analysis of the deposited data

How the results depend on the processing

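No paired analysis was possible because the recovered libraries cannot be tied to the labels' replicate numbers. The typical tested gene had 16 reads over the PABPC1 libraries and 64 over those of PABPC4, and the part of depth in the lost calls was not tested. Against 193 genes higher and 137 lower, library totals gave 895 and 68, a chi-square test on summed reads 1361 and 97, and limma-trend 0 and 2 (505 at an unadjusted p under 0.05, against 1329 in the main test). No filter gave 1602 lower (1440 outside the main test, 1119 with at most 1 RIP read) and 246 higher. A filter of 20 reads in each RIP library gave 295 higher, and the 4 RIP libraries alone 336 and 281. The counts ranged from 10 to 322 higher and from 10 to 276 lower with a library left out. The length difference of 0.13 became 1.11 with no filter and 0.24 with 20 reads in each RIP library, and ranged from 0.11 to 0.14 with a library left out. Among 112 named genes no direction reversed in a called gene under any of the 15 alternatives, and limma-trend lost 98 calls. The cause was not tested.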
